A study of Homo sapiens with 10 samples.

Results

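The cytosolic ribosomal protein (RP) genes encode the protein subunits of the ribosomes that translate nuclear mRNAs. Their levels were taken from RNA-seq of HCT116 cells, a human colorectal cancer cell line, in 10 libraries. Members were the genes with a symbol made of RPL or RPS and a digit, together with *RPLP0*, *RPLP1*, *RPLP2* and *RPSA*. The RPS6K kinases, *RPS27L*, *RPS19BP1* and pseudogenes were left out. The choice used symbols and gene types and no measured value. It gave 84 members among the 13029 genes of the *ZMAT3* experiment and 86 among the 17642 genes of the siRNA experiment, 87 genes in all, of which 83 were in both. Of the 87 genes, 43 encode large subunit proteins, 31 small subunit proteins and 3 proteins of the P-stalk, the flexible arm of the large subunit that recruits elongation factors. The other members are 7 paralogs or like genes and 3 readthrough loci, whose transcripts join an RP gene to its neighbour.

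In the first experiment, 3 *ZMAT3*-WT libraries were compared with 3 *ZMAT3*-KO libraries. ZMAT3 is an RNA-binding protein whose gene is activated by p53. The knockout was made with CRISPR/Cas9 and guides on either side of the p53 response element in an intron of *ZMAT3*, and some *ZMAT3* mRNA remained. Both lines were single-cell clones and the knockout was a single clone, so clone and genotype cannot be told apart, and the p-values measure the spread between cultures of a clone. The labels carry the abbreviations EV and unt, which are not explained, and state that no drug was given. In the second experiment, 2 libraries of HCT116 cells transfected with a negative control siRNA (siCTRL) were compared with 2 transfected with a pool against p53 (sip53), 72 h after transfection. As a check of the labels, *ZMAT3* itself stood at a log2 CPM of 5.00, 5.20 and 5.26 in *ZMAT3*-WT and of 2.25, 2.34 and 2.20 in *ZMAT3*-KO. Of 7 epithelial markers, 6 had values in the *ZMAT3* table and 7 in the siRNA table. Their summed level was 5757 to 6083 CPM in *ZMAT3*-WT, 3160 to 3242 CPM in *ZMAT3*-KO, 3737 to 3972 FPKM in siCTRL and 3532 to 4170 FPKM in sip53. Of 11 fibroblast, leukocyte and endothelial markers, 2 had values in the first table and 4 in the second, with sums of 11.3 to 11.4 CPM in *ZMAT3*-WT, 14.1 to 14.4 CPM in *ZMAT3*-KO, 6.38 to 13.7 FPKM in siCTRL and 17.8 to 34.2 FPKM in sip53. Both experiments measured RNA in bulk, so fewer cells of a kind and less RNA per cell cannot be told apart. Sequencing depth per library is unknown, since neither table holds counts by library.

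RP genes are among the most highly transcribed genes of a growing cell. Each ribosome needs 1 copy of most of their products, with RPLP1 and RPLP2 of the P-stalk present in more than 1. Many of their mRNAs belong to the TOP class, which begins at the cap with a C followed by a run of pyrimidines, and this start lets the mTOR pathway and LARP1 set their translation together. Some free RP proteins also act outside the ribosome: RPL5 and RPL11, when not built into ribosomes, bind MDM2 and so stabilise p53, and RPL23 and RPL26 have been linked to the same circuit.

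The start of the transcript is shown first because it is the sequence feature that most members share and that the choice by symbol did not use. RefSeq promoter entries (assembly GRCh38.p14) were matched by symbol to 68 of the 87 members, with 85 entries in all. A start with a C, opening a run of at least 5 pyrimidines, was found in 48 of the 85 entries, or 56.5%, against 4.07% of the 35116 entries of all genes. In the lines below, the 24 bases run from 8 before the annotated start to 16 from it, 5′ to 3′ on the strand of the mRNA, and the capitals mark the pyrimidine run that begins with a C at the start. The first 9 starts carry such a run and the last 3 do not.
RPLP0: cgcgaggcCCTTCTCTCgccaggc
RPLP1: cgcgagagCCCCTTTCCTCagctg
RPLP2: ggcgccttCCTTTTCCTCCCTgtc
RPL13A: acctcctcCTTTTCCaagcggctg
RPL41: tcgcctttCTCTCggccttagcgc
RPS6: agttggccCTCTTTTCCgtggcgc
RPS16: ctagctttCCTTTTCCggttgcgg
RPSA: ccgcctgtCTTTTCCgtgctacct
RPL22L1: gtagcttcCTCTCTgctctcgcgg
RPL26L1: caggggtcggcgaacgaaacgcgg
RPL7L1: gcggcgccgtagctaggagcggac
RPS29: cgcgcagctggcagcggtggttgt

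The longest run printed is that of *RPLP2* on chromosome 11 (chr11:809959-809982, plus strand), with 13 pyrimidines. *RPL41* on chromosome 12 (chr12:56116625-56116648, plus strand) has 5, and *RPS16* on chromosome 19 (chr19:39435934-39435957, minus strand) has 8. *RPL26L1* on chromosome 5 (chr5:172958721-172958744, plus strand) is the first of 2 starts listed for that gene, and starts with a G. By class, such a start was found in 3 of 3 entries of the P-stalk genes, 18 of 27 of the small subunit genes, 25 of 47 of the large subunit genes and 1 of 5 of the paralogs. Within the 300 bases of each entry (250 before and 50 from the start, both strands), the ETS core motif CCGGAAG was present in 31.8% of the member entries and 10.3% of all entries. The YY1 motif GCCATNTT was in 12.9% and 6.58%, and the TATA box TATAAA in 8.24% and 11.5%. The AP-1 motif TGACTCA, which is read by JUN and FOS, was in 1.18% and 4.95%. These matches describe letters in the annotated windows and not sites that were measured.

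Levels between members can be compared in the siRNA table, whose values were read as FPKM, a unit scaled by transcript length. In siCTRL, the 77 large subunit, small subunit and P-stalk genes had a median of 1888 FPKM (quartiles 1363 and 2534), against 11.0 FPKM over all 14274 genes tested. Of the 100 genes with the highest mean in siCTRL, 59 were members. The range over the 77 genes was 15.1-fold, from 322 FPKM for *RPS28* to 4863 FPKM for *RPLP0*. *RPLP0*, which encodes the base of the P-stalk, was at 5986 and 3740 FPKM in the siCTRL libraries. *RPS2* was at 5428 and 4122 FPKM, *RPS18* at 3112 and 5200 FPKM, *RPL8* at 4013 and 3616 FPKM and *RPS3* at 3951 and 3595 FPKM. In this order, by the mean of the siCTRL libraries, each of the 5 overlapped with its neighbour.

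The lowest members were paralogs and a readthrough locus. *RPL3L*, the muscle form of *RPL3*, stood at 0.03 and 0.05 FPKM in siCTRL, and *RPL39L*, a form of *RPL39* known from testis, at 0.42 and 0.22 FPKM. Both were under the filter of a mean of 0.5 FPKM, so 84 of the 86 members were tested in the siRNA experiment. *RPL36A-HNRNPH2* was at 1.02 and 0.28 FPKM. *RPL7L1*, at 42.8 and 52.8 FPKM, and *RPL26L1*, at 53.7 and 59.2 FPKM, lay far below *RPL7* (1854 and 2528 FPKM) and *RPL26* (3745 and 2609 FPKM). In contrast, *RPL22L1* (525 and 459 FPKM) lay beside its parent *RPL22* (529 and 400 FPKM), and *RPL36AL* (415 and 294 FPKM) below *RPL36A* (2175 and 1496 FPKM). A further 116 RP pseudogenes in the siRNA table summed to 3.86% to 6.28% of the members' summed FPKM, and 49 in the *ZMAT3* table to 2.28% to 2.36% of the members' summed CPM. Reads could be split between these copies and the members, and their part in the results was not tested.

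**Figure D1:**
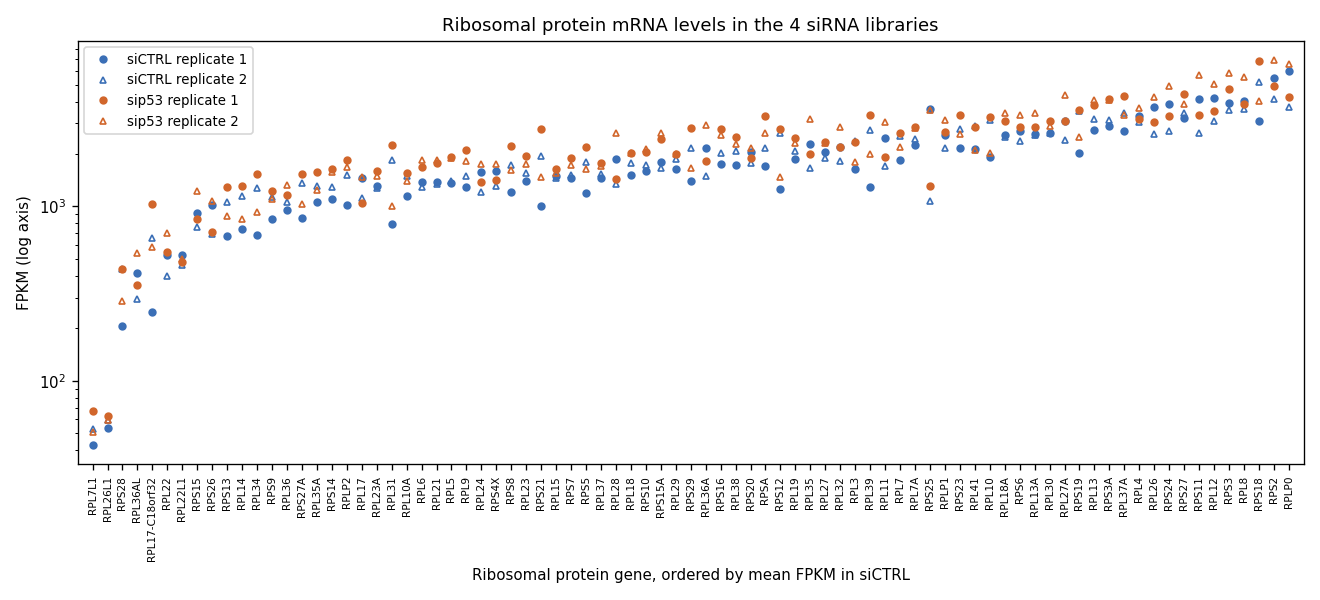
FPKM (log axis) of 81 ribosomal protein genes in the 4 siRNA libraries, ordered by their mean in siCTRL; circles are replicate 1 and triangles replicate 2, with siCTRL in blue and sip53 in orange. *RPL7L1* and *RPL26L1* sit between 42.8 and 67.2 FPKM and the other genes at 205 FPKM or more, and *RPL36A-HNRNPH2*, *RPL3L* and *RPL39L* were left off for their low values.

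The first question was whether loss of ZMAT3 moved the RP mRNAs. Many were slightly lower in *ZMAT3*-KO. At an adjusted p under 0.05 (two-sided limma test, adjusted by Benjamini-Hochberg over the 13029 genes), 43 of the 84 members were lower and 3 were higher. The background was high, with 58.8% of all genes called by the same rule, 30.1% lower and 28.7% higher, against 51.2% lower and 3.57% higher of the members. Of all genes, 49.1% lay above 0. The median log2 fold change was -0.085 over the members and -0.01 over all genes, and 66 of the 84 members lay below 0. The changes were small. Among the 77 subunit and P-stalk genes the fold in *ZMAT3*-KO ran from 0.843 to 1.16, with standard errors of 0.02 to 0.05 on the log2 scale, and none of them passed a fold change of 1.5, which 8.96% of all genes did with an adjusted p under 0.05. The plot of each library shows this as a shift of the *ZMAT3*-KO points to the left of the *ZMAT3*-WT points for the lower rows.

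**Figure D2:**
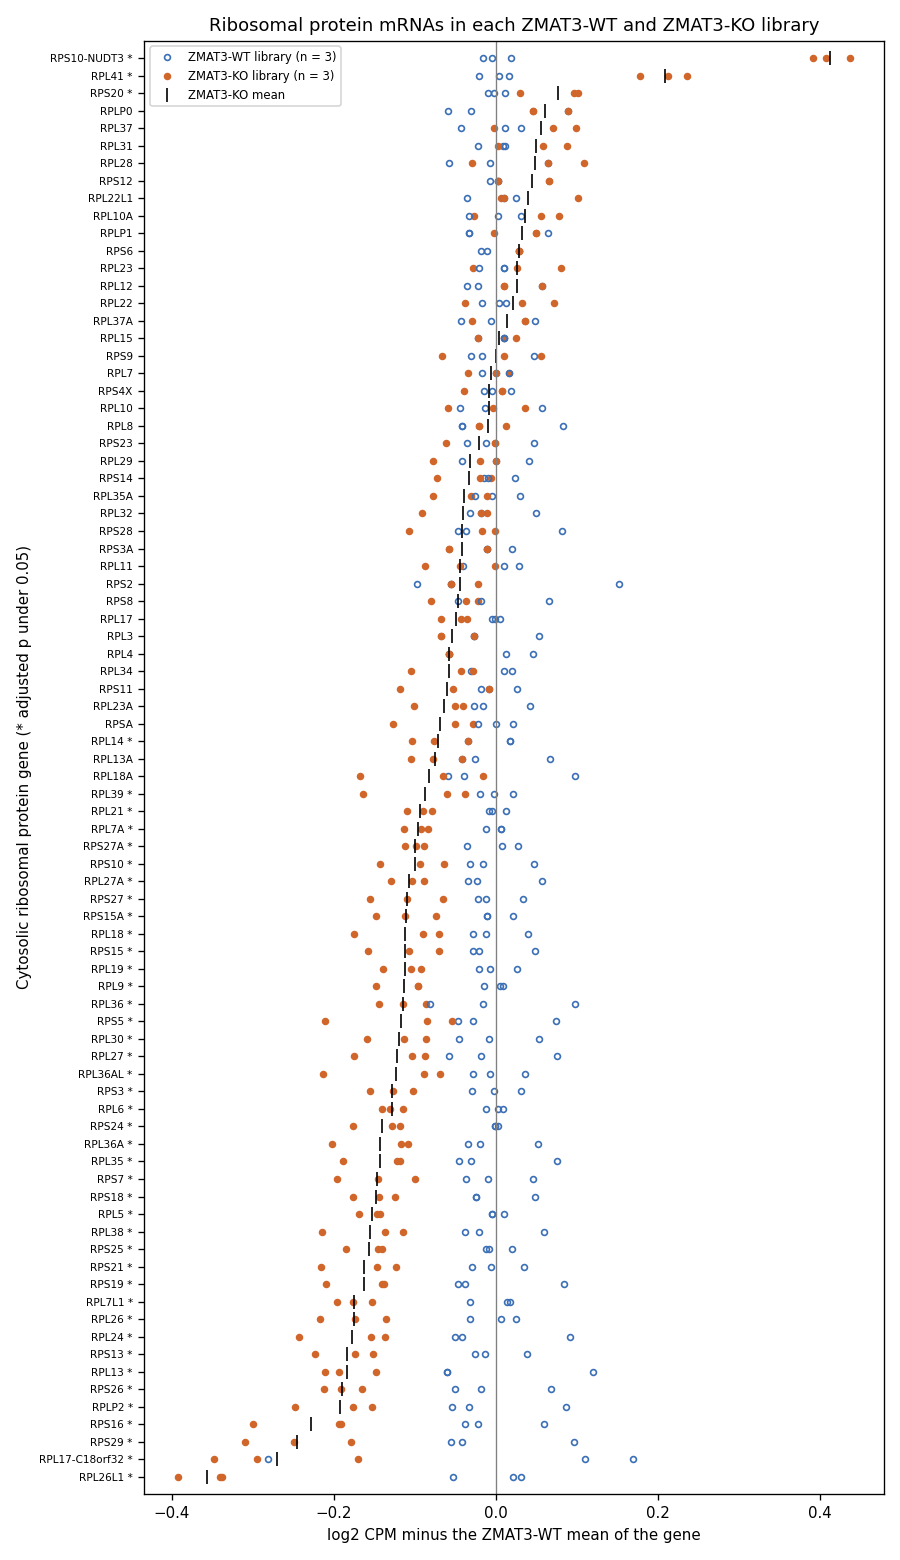
Each of the 82 rows is a ribosomal protein gene of the *ZMAT3* experiment, ordered by log2 fold change; open blue points are the 3 *ZMAT3*-WT libraries, filled orange points the 3 *ZMAT3*-KO libraries, and black bars the *ZMAT3*-KO means, as log2 CPM minus the *ZMAT3*-WT mean of the gene. Stars mark an adjusted p under 0.05; the groups separate for *RPL26L1* at the bottom and *RPS10-NUDT3*, *RPL41* and *RPS20* at the top, and overlap in the middle rows. *RPL36A-HNRNPH2* was left off for its range.

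The values of all 3 *ZMAT3*-KO libraries lay below those of all 3 *ZMAT3*-WT libraries for 43 members, and above them for 3. Over all genes this was so for 32.9% and 31.3%. The libraries did not contribute equally. *ZMAT3*-WT replicate 1 was the highest of its group for 66 of the 84 members, and *ZMAT3*-KO replicate 2 the lowest of its group for 74. Without *ZMAT3*-WT replicate 1, 39 members were lower and 5 higher, against 3844 and 3682 of all 13029 genes. Without *ZMAT3*-KO replicate 2, 38 members were lower and 6 higher, against 3710 and 3487 of all genes. With both libraries left out, an alternative chosen after the values were seen, 40 members were lower and 17 higher, and their median was -0.045. In that fit, 3989 of all 13029 genes were lower and 3770 higher. The count of lower members thus stayed between 38 and 42 whichever single library was left out, whereas the count of higher members did not hold within 1.5 times. Since the deposited values gave every library the same distribution, all of these are relative levels.

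The summed level shows the same order of size. Of the summed CPM, the members held 7.65%, 7.29% and 7.30% in *ZMAT3*-WT and 7.18%, 6.94% and 7.19% in *ZMAT3*-KO. The groups did not overlap, but the gap between them was smaller than the range within either group. In the siRNA libraries the share of summed FPKM was 19.8% and 22.6% in siCTRL and 25.6% and 23.8% in sip53. These shares are on different scales and cannot be set against each other, since FPKM gives more weight to short transcripts.

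**Figure D3:**
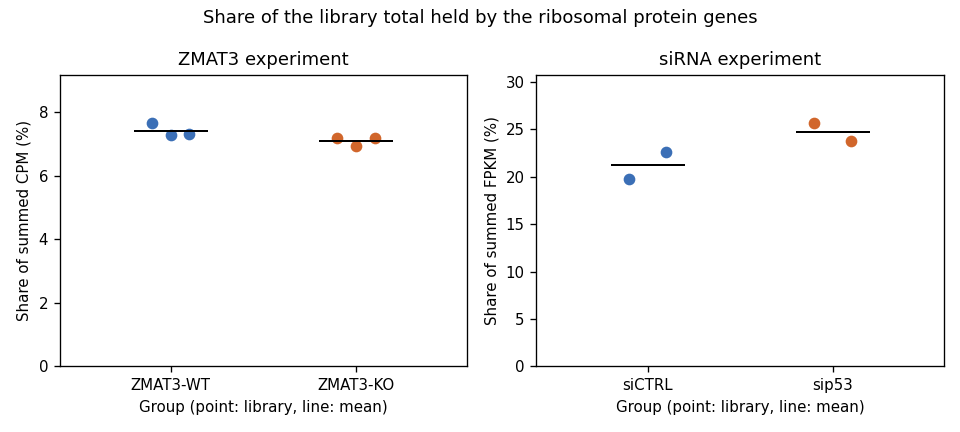
Share of the library total held by the ribosomal protein genes, as a percentage of summed CPM (*ZMAT3* experiment, 84 genes, n = 3 libraries a group) or of summed FPKM (siRNA experiment, 86 genes, n = 2 libraries a group). Points are libraries and lines group means; the *ZMAT3*-KO points lie just under the *ZMAT3*-WT points, and the sip53 points above the siCTRL points.

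Small subunit genes were called lower in 18 of 31 cases and higher in 1, with a median log2 fold change of -0.10. These shares were 58.1% and 3.23%, against 30.1% and 28.7% of all genes. The largest decrease among the small subunit genes was in *RPS29* (chromosome 14), whose product lies in the head of the subunit. Its log2 CPM was 7.85, 7.71 and 7.70 in *ZMAT3*-WT and 7.58, 7.45 and 7.51 in *ZMAT3*-KO, which did not overlap. Its log2 fold change was -0.25 (SE 0.04, adjusted p = 0.000339). *RPS16* (chromosome 19 from 39433137 to 39435949), whose product reaches into the decoding site, went from 9.55, 9.47 and 9.45 to 9.30, 9.19 and 9.30. Its log2 fold change was -0.23 (SE 0.04, adjusted p = 0.000134), again without overlap. *RPS26* followed with -0.19 and *RPS13* with -0.18.

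Other small subunit genes known from disease or signalling differed among themselves. *RPS19*, the gene most often mutated in Diamond-Blackfan anaemia, fell by 0.16 on the log2 scale (adjusted p = 0.00189). *RPS27A*, which encodes a ubiquitin fusion, fell by 0.10, *RPS27* by 0.11 and *RPS3*, which lines the mRNA entry channel, by 0.13, and all 3 passed the test. *RPS14*, which is lost in a form of myelodysplasia, had a log2 fold change of -0.03 and *RPS4X* of -0.01, and neither passed. *RPS6*, a phosphorylation target downstream of mTOR, stood at 10.63, 10.59 and 10.58 in *ZMAT3*-WT and at 10.63 in every *ZMAT3*-KO library (log2 fold change 0.03, adjusted p = 0.348). Such ties between libraries, which the shared distribution of the deposited values allows, were found in 31 of the 84 members. *RPSA*, also known as the laminin receptor, stood at 10.92, 10.88 and 10.90 and then at 10.87, 10.78 and 10.85, which did not overlap, but its log2 fold change of -0.07 missed the threshold (adjusted p = 0.0674), which it passed without *ZMAT3*-KO replicate 1 (-0.09, adjusted p = 0.0451). *RPS20* was the small subunit gene that was called higher. Its values were 9.47, 9.47 and 9.49 in *ZMAT3*-WT and 9.58, 9.51 and 9.57 in *ZMAT3*-KO, with a log2 fold change of 0.08 (SE 0.03, adjusted p = 0.0275). This call was lost in limma without *ZMAT3*-KO replicate 1 (adjusted p = 0.117), *ZMAT3*-KO replicate 3 (0.103), *ZMAT3*-WT replicate 2 (0.0732) or *ZMAT3*-WT replicate 3 (0.0595), with log2 fold changes of 0.06 to 0.10 over the 6 libraries left out, and without the variance trend (0.0892).

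Large subunit genes were called lower in 19 of 43 cases and higher in 1, with a median of -0.06. These shares were 44.2% and 2.33%, against 30.1% and 28.7% of all genes. *RPL13* had a log2 fold change of -0.18, *RPL24* of -0.18 and *RPL26* of -0.18, and the groups overlapped for none of these genes. Of the genes tied to MDM2, *RPL5* stood at 10.39, 10.41 and 10.39 in *ZMAT3*-WT and 10.25, 10.23 and 10.26 in *ZMAT3*-KO, a fall of 0.15 (SE 0.02, adjusted p = 0.00016). Its partner *RPL11* stood at 9.36, 9.43 and 9.41 and then at 9.36, 9.31 and 9.40, which overlapped (log2 fold change -0.04, adjusted p = 0.221), and *RPL23* had a log2 fold change of 0.03 (adjusted p = 0.472). Whether *RPL5* differed from *RPL11* in its response was not tested. *RPL36A* fell by 0.14 and *RPL39*, which lines the exit tunnel, by 0.09, and both passed the test. The call of *RPL39* was lost without *ZMAT3*-KO replicate 2 (log2 fold change -0.05, limma adjusted p = 0.137), *ZMAT3*-WT replicate 2 (0.0547) or *ZMAT3*-WT replicate 3 (0.123), and without the variance trend (0.123). *RPL13A*, *RPL10* and *RPL3* did not pass, with log2 fold changes of -0.07, -0.01 and -0.05, although *RPL13A* passed without *ZMAT3*-WT replicate 3 (-0.10, adjusted p = 0.0493).

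*RPL41*, which encodes a very short, basic protein of the large subunit, was the large subunit gene that rose. Its log2 CPM was 9.70, 9.69 and 9.66 in *ZMAT3*-WT and 9.92, 9.86 and 9.90 in *ZMAT3*-KO. The groups were apart by more than either varied, with a fold of 1.16 (log2 fold change 0.21, SE 0.03, adjusted p = 2.12e-05). Its start has a pyrimidine run as shown above, as do those of *RPS16* and *RPLP2*, which were lower. Across the 68 members with a promoter entry, 26 of the 48 with such an annotated start and 12 of the 20 without one were called lower. Their medians were -0.09 and -0.11. Of all genes, 30.1% were called lower. Whether members with and without such a start differed was not tested.

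The P-stalk genes did not move together. *RPLP2* stood at 9.58, 9.46 and 9.44 in *ZMAT3*-WT and 9.34, 9.25 and 9.32 in *ZMAT3*-KO, a log2 fold change of -0.19 (SE 0.04, adjusted p = 0.000835), without overlap. *RPLP0* had a log2 fold change of 0.06 (adjusted p = 0.167) and *RPLP1* of 0.03 (adjusted p = 0.393), and for both the groups overlapped. Without *ZMAT3*-WT replicate 1 both were called higher, *RPLP0* with 0.11 (limma adjusted p = 0.00211) and *RPLP1* with 0.07 (adjusted p = 0.0312).

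The largest changes were in members that are not ribosomal subunits in the strict sense. *RPL26L1* (chromosome 5 from 172958729 to 172969771), a close copy of *RPL26*, stood at 5.48, 5.40 and 5.47 in *ZMAT3*-WT and 5.11, 5.06 and 5.11 in *ZMAT3*-KO. The log2 fold change was -0.36 (SE 0.04, adjusted p = 5.66e-06). *RPL7L1*, a like gene whose product takes part in ribosome assembly, fell by 0.17 and *RPL36AL* by 0.12 (-0.08 without *ZMAT3*-KO replicate 2, adjusted p = 0.044, and not called without the variance trend, adjusted p = 0.0677), whereas *RPL22L1* had a log2 fold change of 0.04 and its parent *RPL22* of 0.02 (adjusted p = 0.302 and 0.559). *RPS10-NUDT3*, a readthrough locus on chromosome 6, rose by 0.41 (SE 0.04, adjusted p = 7.49e-07), while *RPS10*, which lies within it, fell by 0.10 (adjusted p = 0.0127). *RPL17-C18orf32* had a log2 fold change of -0.27 (adjusted p = 0.0283) with overlapping groups. It ran from -0.19 without *ZMAT3*-WT replicate 3 (limma adjusted p = 0.125) to -0.41 without *ZMAT3*-WT replicate 2, and the call was also lost without *ZMAT3*-WT replicate 1 (0.101), *ZMAT3*-KO replicate 1 (0.0985), *ZMAT3*-KO replicate 2 (0.0769) or the variance trend (0.11). *RPL36A-HNRNPH2* had the largest estimate, -1.39 (SE 0.43, adjusted p = 0.0137), but its values of 1.5, 3.03 and 1.61 against 1.51, 0.80 and -0.35 overlapped. It was -0.89 without *ZMAT3*-KO replicate 3 and -0.90 without *ZMAT3*-WT replicate 2, and neither passed the test (limma adjusted p = 0.0577 and 0.0582), nor did the fit without the variance trend (0.0882). Readthrough loci share exons with their parent genes, and a close copy can take reads from its parent, so the values of these members are uncertain.

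*RPS27L*, a paralog of *RPS27* and a known p53 target, was left out of the members by the rule. It was lower in *ZMAT3*-KO (5.73, 5.89 and 5.89 against 5.32, 5.27 and 5.40), with a log2 fold change of -0.50 (SE 0.05, adjusted p = 2.60e-06). In the siRNA libraries it went from 81.6 and 134 FPKM to 28.7 and 20.1 FPKM, a log2 fold change of -2.11 (limma unadjusted p = 0.000851, adjusted p = 0.0985).

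Lists of genes that act with the RP genes were counted in the same way. Whether the lists differed from the RP genes was not tested. Over all genes, 30.1% were called lower and 28.7% higher. Of 71 ribosome biogenesis factors, 59 were lower and 3 higher (83.1% and 4.23%), with a median of -0.21. The largest decreases were in *UTP4* (-0.45), *MDN1* (-0.45) and *UTP20* (-0.44), which act in processing of the small subunit and in remodelling of the large subunit precursor. *EFL1*, the GTPase that releases EIF6 from new large subunits, rose by 0.83 (SE 0.06, adjusted p = 1.58e-07), and *SENP3* by 0.15 and *NMD3* by 0.09. Of 17 RNA polymerase I genes, 13 were lower and 1 higher (76.5% and 5.88%), with a median of -0.19. *TAF1A* (-0.45), *TAF1C* (-0.38) and *POLR1C* (-0.30) had the largest decreases, and *POLR2H*, which encodes a subunit that the RNA polymerases share, rose by 0.44. Of 78 mitochondrial RP genes, 53 were lower and 4 higher (67.9% and 5.13%), with a median of -0.17. They were led by *MRPS31* (-0.74), *MRPL44* (-0.54) and *MRPL2* (-0.54), while *MRPL47* rose by 0.31, *MRPL34* by 0.16 and *MRPL53* by 0.15. The calls of *NMD3*, *MRPL34* and *MRPL53* were each lost without *ZMAT3*-KO replicate 3 (limma adjusted p = 0.0584, 0.091 and 0.0757), and without at least 1 other library.

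The other mRNAs of the TOP class, which are not RP genes by symbol, were divided. Of 27 genes, 10 were lower and 5 higher, with a median of -0.02. These shares were 37% and 18.5%, against 30.1% and 28.7% of all genes. *EEF2*, the factor that moves the ribosome along the mRNA, fell by 0.30, *FAU*, which encodes a small subunit protein fused to a ubiquitin-like domain, by 0.29, and *EIF3G* by 0.22. *EIF4A2*, an RNA helicase of translation initiation, rose by 0.72 and *EIF2S3* by 0.17. *VIM* rose by 0.74 from a low level of 0.31 log2 CPM. Of 20 snoRNA host genes, whose introns carry the guides for ribosomal RNA modification, 4 were lower and 3 higher, with a median of 0.005. Their shares of 20% and 15% lay below those of all genes. *SNHG9* fell by 0.77, *SNHG10* by 0.46 and *SNHG5* by 0.21, while *SNHG20* rose by 0.32, *ZFAS1* by 0.10 and *SNHG29* by 0.09. Of the 6 epithelial markers tested, 3 were called lower, *KRT19* (-1.75), *KRT8* (-0.94) and *KRT18* (-0.82), and 0 higher. The median of the 6 was -0.45, and 2 of them lay above 0, the highest at 0.05. The low *CD68* and *COL1A1* were higher by 0.98 and 0.16 in the same libraries. Without *ZMAT3*-KO replicate 3 the calls of *SNHG29*, *ZFAS1* and *COL1A1* were lost (limma adjusted p = 0.0522, 0.104 and 0.0736), and those of *ZFAS1* and *COL1A1* without other libraries as well. The part of these markers in the results on RP genes was not tested.

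**Figure D4:**
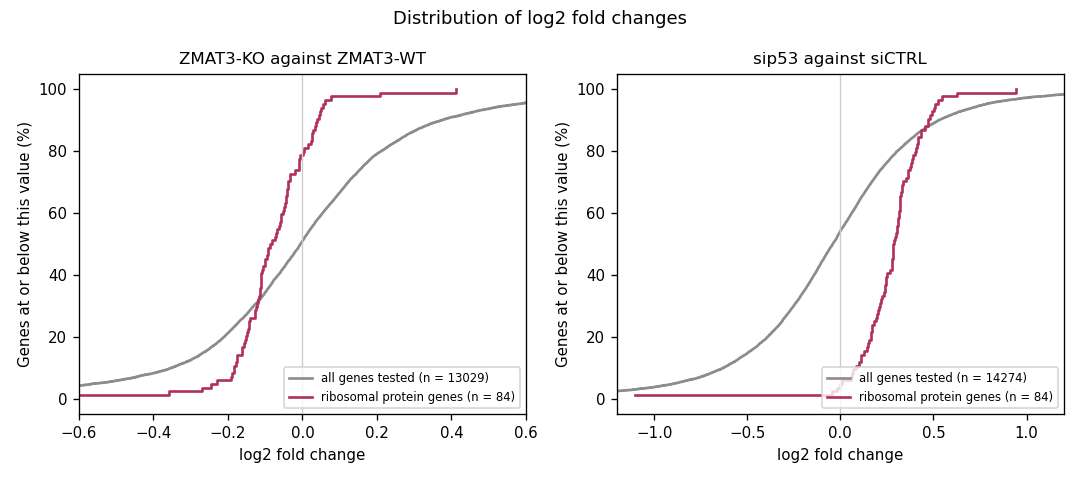
Cumulative share of genes (%) at or below each log2 fold change, for all genes tested (grey) and the 84 ribosomal protein genes tested (red), in *ZMAT3*-KO against *ZMAT3*-WT (left) and in sip53 against siCTRL (right); values beyond the axes are not drawn. The red curve is steeper than the grey one on both sides, with its middle at -0.085 on the left and at 0.29 on the right.

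The second question was whether depletion of p53 moved the same mRNAs. The estimates for RP genes were higher in sip53, but no single member passed the test in the main fit. That fit kept the variance trend and used no pairing, centring or stricter filter. On the log2(FPKM + 0.1) scale 80 of the 84 members tested lay above 0, as did 45.9% of all 14274 genes tested, and the median was 0.29, or 1.22-fold, against -0.04 over all genes. At the unadjusted p of 0.05 that was used in this experiment, limma called 0 of the 84 members, against 15.1% of all genes (5.86% higher and 9.28% lower), and 0 at an adjusted p of 0.05, against 0.273% of all genes. With 2 libraries a group, the smallest two-sided p of an exact permutation test is 0.333. The 95% intervals of all 84 log2 fold changes held 0, with a median distance of 0.67 from the estimate to either end, and in 82 of them the upper end reached a 1.5-fold increase. A change of the size of the median was therefore not detectable in a single gene by this fit, in which the libraries are not paired, and the intervals do not show that the genes did not change.

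Both sip53 libraries lay above both siCTRL libraries for 35 of the 84 members and below them for 0, against 20.1% and 26.3% of all genes. The estimates were similar in the large subunit genes (median 0.28 over 43), the small subunit genes (0.30 over 31) and the P-stalk genes (0.29 over 3). *RPSA* had the largest estimate of the subunit genes. It went from 1698 and 2169 FPKM in siCTRL to 3324 and 2649 FPKM in sip53, a log2 fold change of 0.63 with a 95% interval of -0.03 to 1.29 (limma unadjusted p = 0.0574). The groups did not overlap. *RPSA* passed the unadjusted threshold after centring (0.70, limma unadjusted p = 0.0419) and with a mean of at least 5 FPKM (0.63, limma unadjusted p = 0.0476). Without these changes *RPS15A*, chosen after its values were seen, had the lowest p among the members. It stood at 1798 and 1667 FPKM against 2427 and 2628 FPKM (log2 fold change 0.55, limma unadjusted p = 0.0513).

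*RPL5* stood at 1362 and 1397 FPKM in siCTRL and 1920 and 1904 FPKM in sip53, with a log2 fold change of 0.47 (interval -0.05 to 1.00). The replicates of *RPL5* were close in both groups, and it passed the unadjusted threshold after centring (0.55, limma unadjusted p = 0.048). Its partner *RPL11* stood at 2466 and 1708 FPKM and then at 1922 and 3049 FPKM, so the groups overlapped (log2 fold change 0.24, interval -0.61 to 1.09). *RPL23* went from 1397 and 1558 FPKM to 1937 and 1751 FPKM without overlap, and *RPL26* from 3745 and 2609 FPKM to 3070 and 4255 FPKM with overlap.

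*RPLP2* stood at 1014 and 1525 FPKM and then at 1840 and 1683 FPKM without overlap (0.50), *RPLP1* at 2583 and 2168 FPKM and then at 2680 and 3127 FPKM without overlap (0.29), and *RPLP0* overlapped (0.16). Among small subunit genes, *RPS3* went from 3951 and 3595 FPKM to 4740 and 5826 FPKM (0.48), *RPS14* from 1110 and 1292 FPKM to 1633 and 1570 FPKM (0.42) and *RPS6* from 2715 and 2388 FPKM to 2852 and 3370 FPKM (0.28), each without overlap. *RPS19* (0.17), *RPS27A* (0.21) and *RPS4X* (0.13) overlapped. The groups did not overlap for *RPS27* (0.31), *RPL13A* (0.28) and *RPL22* (0.43), and they did for *RPL10* (0.07), *RPL3* (0.06), *RPL36A* (0.36) and *RPL39* (0.47). Estimates below 0 were found for *RPL17* (-0.04), *RPL41* (-0.02), *RPL22L1* (-0.002) and *RPL36A-HNRNPH2* (-1.10), and all 4 intervals held 0. After centring of the libraries on their median genes, the estimates of *RPL41* and *RPL22L1* were 0.06 and 0.07.

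The siRNA libraries of a group differed from each other by more than the groups did for many members. The siCTRL replicates were apart by 1.5-fold or more for 21 of the 84 members and the sip53 replicates for 22, against 17.9% and 22% of all genes. For 16 members both pairs were apart, and in 15 of these replicate 1 was the higher in one group and replicate 2 in the other. *RPS25* stood at 3614 and 1079 FPKM in siCTRL and at 1320 and 3601 FPKM in sip53. *RPS12* stood at 1258 and 2640 FPKM and then at 2766 and 1477 FPKM, and *RPL31* at 796 and 1841 FPKM and then at 2252 and 1005 FPKM. These 3 genes were chosen for this pattern after their values were seen. For them siCTRL replicate 1 was close to sip53 replicate 2, and siCTRL replicate 2 to sip53 replicate 1. Across the 84 members the replicate differences in the 2 groups had a Pearson correlation of -0.60, and across all 14274 genes of -0.62, and these genes share the same 4 libraries. sip53 replicate 1 was above siCTRL replicate 2 for 79 members and sip53 replicate 2 above siCTRL replicate 1 for 80, while for libraries with the same number the counts were 61 and 57.

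**Figure D5:**
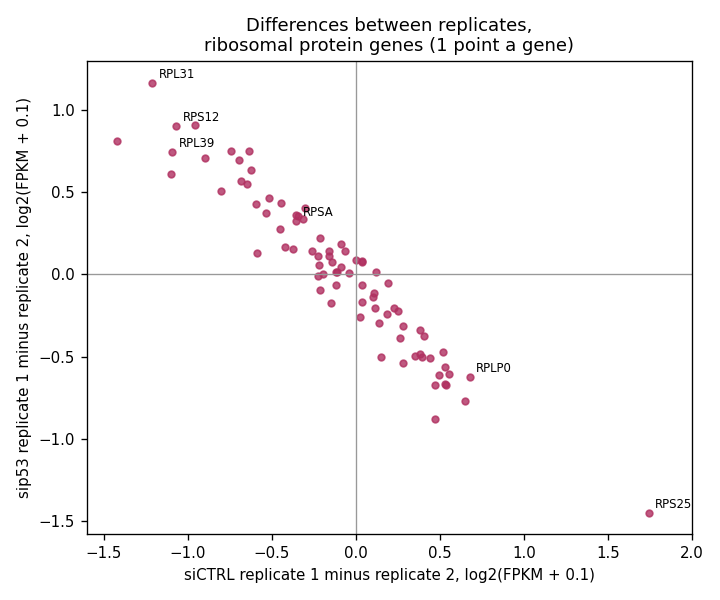
Each point is a ribosomal protein gene (81 drawn); the horizontal axis is siCTRL replicate 1 minus replicate 2 and the vertical axis sip53 replicate 1 minus replicate 2, both on the log2(FPKM + 0.1) scale. The points run from the upper left (*RPL31*, *RPS12*, *RPL39*) to the lower right (*RPS25*), with a correlation of -0.60 over the 84 genes tested.

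An uncertain value is that of *RPL17-C18orf32*, which overlaps *RPL17* and had the highest estimate of all members, 0.94 (247 and 659 FPKM against 1029 and 585 FPKM). It was 1.65 without siCTRL replicate 2 (limma unadjusted p = 0.0101) and 0.24 without siCTRL replicate 1.

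The same lists were counted in sip53, again with no test between lists. By the same rule (limma, unadjusted p under 0.05), 5.86% of all genes were called higher and 9.28% lower. Of 69 ribosome biogenesis factors, 1 was called higher and 6 lower (1.45% and 8.7%), with a median of -0.11, so the lower share was near that of all genes. *FBL*, the methyltransferase of box C/D snoRNPs, rose from a mean of 204 to 333 FPKM (0.70, limma unadjusted p = 0.0255), and *DDX56* (-0.83), *URB1* (-0.72) and *UTP14A* (-0.71) fell. Of 17 RNA polymerase I genes, *POLR1A* (-0.84) and *TAF1C* (-0.62) were lower (11.8%) and 0 were higher, with a median of -0.14. Of 76 mitochondrial RP genes, 4 were higher and 1 lower (5.26% and 1.32%), with a median of -0.02, so the higher share was near that of all genes. *MRPL52* (0.60), *MRPL23* (0.57) and *MRPL54* (0.50) were higher and *MRPL40* lower (-0.64). Of the 26 other TOP mRNAs, 0 were called by limma either at an unadjusted or an adjusted p of 0.05, with a median of 0.16 and 20 above 0. Of 15 snoRNA host genes, 4 were higher (26.7%) and 0 lower, with a median of 0.34, led by *SNHG12* (1.15), *SNHG17* (1.02) and *SNHG1* (0.96). None of these list genes passed an adjusted p of 0.05 in limma. The calls of *SNHG12*, *SNHG17* and *SNHG1* held whichever library was left out. Those of *MRPL52*, *MRPL23* and *MRPL54* were lost without any 1 of the 4 libraries, with unadjusted p of 0.0502 to 0.269. Without siCTRL replicate 2 the calls of *FBL*, *DDX56*, *URB1*, *POLR1A*, *TAF1C* and *MRPL40* were lost (0.0578 to 0.183), and without siCTRL replicate 1 that of *UTP14A* (0.134). All of these except *DDX56* were also lost without at least 1 other library. *URB1* was -0.44 without sip53 replicate 2. Of the 6 epithelial markers tested, 2 lay above 0, with a median of -0.09, and *EPCAM* (0.60) was the 1 that was called, a call that was lost without any 1 library (0.0641 to 0.169). Of 2 fibroblast, leukocyte and endothelial markers tested, both lay above 0 and *CD68* was called (2.09, and 1.14 without siCTRL replicate 2, unadjusted p = 0.0643). The part of the markers in these results was not tested.

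Set side by side, the experiments gave estimates of opposite sign for most members. They have separate controls and were normalized separately. Of the 83 members tested in both, 64 lay below 0 in *ZMAT3*-KO and above 0 in sip53. In each experiment alone, 66 of 84 members lay below 0 in *ZMAT3*-KO and 80 of 84 above 0 in sip53. The count of 64 therefore does not show a relation gene by gene. The 43 members called lower in *ZMAT3*-KO had a median of 0.32 in sip53, with 42 of them above 0, and the 38 that were not called had a median of 0.26, with 36 above 0. Over the 83 members the log2 fold changes had a Pearson correlation of 0.45 and a Spearman correlation of -0.31. Without *RPL36A-HNRNPH2*, which was low and lay far below 0 in both experiments, they were -0.38 and -0.35 over 82 members, so the sign of the first rests on that locus. No member was called in both main fits, since none was called in the main fit of sip53.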

How the data were processed

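RNA was sequenced from 10 libraries of HCT116 cells, which were grouped by their labels. In the *ZMAT3* experiment, mRNA was selected with oligo(dT) and the reads of stranded libraries were trimmed (Cutadapt), mapped to hg38 (STAR) and quantified over GENCODE genes (RSEM) by the authors. The deposited values are log2 CPM and share 1 distribution in all 6 libraries. In the siRNA experiment, the values deposited by the authors are read here as FPKM, a reading taken from the values. The submitters' processing notes list CASAVA 1.8.2, TopHat2 2.0.8 and FastQC 0.11.2, without a role, and which of the builds hg19 and hg38 was used for these libraries is not given in the sources used here. The same table holds the authors' deposited mean signal per gene over the 4 libraries, which served to choose between entries with the same symbol. Columns with fold changes and p-values of the authors' own comparisons were not used. Neither table holds counts by library, so depth is unknown and no count model was fitted.

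The tables had been normalized separately, and each experiment was tested alone with limma 3.58.1 (R 4.3.3, functions lmFit and eBayes, trend of variance on mean, two-sided). P-values were adjusted by Benjamini-Hochberg over every gene tested. In the *ZMAT3* experiment the deposited log2 values entered the fit without a filter, and calls were made at an adjusted p of 0.05. In the siRNA experiment log2(FPKM + 0.1) was tested where the mean reached 0.5 FPKM, and calls were made at an unadjusted p of 0.05. A fold change on that scale understates the change of low genes. Values were handled with Python 3.11.15, pandas 2.3.3, numpy 2.4.6 and scipy 1.17.1, and drawn with matplotlib 3.10.9. On simulated data with 100 genes changed by a log2 value of 0.5, the *ZMAT3* design called 81% of them at an adjusted p of 0.05. The siRNA design called 56% at an unadjusted p of 0.05 and 0% at an adjusted p of 0.05. Smaller changes, such as the member medians of -0.085 and 0.29, were not simulated. Noise was drawn independently for each library, so these rates do not cover libraries that deviate together.

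The members and lists were chosen with earlier results of these data known. Named were, of the members called, the 10 with the largest rise and the 10 with the largest fall, members with a listed role, the 5 highest and 5 lowest members in siCTRL, members called in both experiments, and from each further list the 3 called genes that rose and the 3 that fell most. The labels number the replicates in both groups. The deviations of libraries with the same number correlated between -0.09 and -0.02 in the *ZMAT3* experiment and at -0.62 in the siRNA experiment, so the numbers were not taken as pairs. Coordinates are from GENCODE release 44 (hg38), and promoter sequences from RefSeq. Alternatives were another pseudocount, other filters, centring, a fit without the trend, a block for the replicate number, other thresholds and leaving out each library. Some genes enter the counts and fits but are not reported by name here. Proteomics and the other assays of the study were not analysed here.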

Additional observations from a re-analysis of the deposited data

How the results depend on the processing

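The 43 lower and 3 higher members in *ZMAT3*-KO were 43 and 3 with log2(CPM + 1), with a mean log2 CPM of at least 0 and with centring. Without the variance trend they were 33 and 2, against 3624 lower and 3465 higher of all 13029 genes. At an unadjusted p of 0.05, 49 of the 84 members were called, against 8229 of all 13029 genes. With an adjusted p under 0.05 and a fold change of 1.5, 1 member was lower and 0 were higher, against 8.96% of all genes called. Leaving out each library in turn gave 38 to 42 members lower, 2 to 6 higher and a median of -0.10 to -0.06. Over all genes it gave 3504 to 3844 lower and 3329 to 3682 higher. Without *ZMAT3*-WT replicate 1 and *ZMAT3*-KO replicate 2 together (added after seeing the data) 17 members were higher, among 3770 of all 13029 genes. The median of the members was then -0.045. In sip53 no member was lower or higher with log2(FPKM + 1), with no filter, at an adjusted p of 0.05 or with a fold change of 1.5. With centring 3 of 84 members were higher, against 1120 of all 14274 genes. With the filter raised to 5 FPKM, 2 of 83 members were higher, against 555 of 9629 genes. Without the variance trend 1 of 84 members was higher, against 856 of 14274 genes. In each of these 3 settings, a smaller share of the members than of all genes was called higher. Leaving out each library gave 0 to 1 lower (1 without sip53 replicate 1), 0 to 1 higher (1 without siCTRL replicate 2) and a median of 0.24 to 0.35. There, 1 group holds a single library, assumed to vary like the other. The cause of these changes was not tested.

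With the replicate block, 47 members were lower and 3 higher in *ZMAT3*-KO, and 0 were lower or higher in sip53, where the calls over all genes went from 836 higher and 1325 lower to 434 and 650. With the pairing crossed in the siRNA experiment (siCTRL replicate 1 with sip53 replicate 2, added after seeing the data), 64 members were higher and 0 lower. Over all genes 2410 were higher and 3128 lower. The count of 0 in sip53 thus holds for the main fit, which has no pairing, and with the numbered pairs. With the numbered block *RPSA* and *RPL13A* passed in *ZMAT3*-KO (limma adjusted p = 0.0391 and 0.0475), and in sip53 *FBL*, *URB1*, *UTP14A*, *TAF1C*, *MRPL52*, *MRPL23*, *MRPL54*, *MRPL40* and *EPCAM* were no longer called (unadjusted p of 0.0622 to 0.183). The block changed no other call of a named gene.

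Centring turned *RPL22L1* to 0.074 and *RPL41* to 0.058 in sip53. Leaving out 1 library turned the direction of members that were not called. In *ZMAT3*-KO the log2 fold change ranged from -0.031 to 0.020 for *RPL10*, -0.0032 to 0.052 for *RPL22*, -0.0008 to 0.054 for *RPL23*, -0.031 to 0.032 for *RPL8*, -0.093 to 0.032 for *RPS2* and -0.016 to 0.0075 for *RPS4X*. In sip53 it ranged from -0.28 to 0.41 for *RPL10*, -0.094 to 0.57 for *RPL11*, -0.099 to 0.094 for *RPL22L1*, -0.026 to 0.36 for *RPL24*, -0.051 to 0.47 for *RPL26*, -0.20 to 0.33 for *RPL3*, -2.71 to 0.50 for *RPL36A-HNRNPH2*, -0.075 to 1.02 for *RPL39*, -0.24 to 0.20 for *RPL41*, -0.18 to 0.50 for *RPLP0*, -0.23 to 0.57 for *RPS19*, -0.027 to 0.20 for *RPS20*, -0.25 to 0.36 for *RPS26*, -0.13 to 0.55 for *RPS27A*, -0.056 to 0.69 for *RPS29* and -0.029 to 0.28 for *RPS4X*. Depth by library is unknown. The authors' mean over the 4 siRNA libraries, in a column named as a mean of scaled counts, was 6.21 for *RPL36A-HNRNPH2*, so its values there rest on few reads. No counts were used for the *ZMAT3* experiment.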
